A study of Homo sapiens with 6 samples.

Results

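Epithelial and mesenchymal cells differ in the adhesion proteins they carry, in the transcription factors that set those programmes and in how they splice the same transcripts. Described here are 10 genes of these programmes, out of 37902 genes in the table: the epithelial splicing factors ESRP1 and ESRP2, the epithelial transcription factor GRHL2, the cadherins CDH1 and CDH2, the intermediate filament gene VIM, and the repressors ZEB1, ZEB2, SNAI1 and SNAI2. They were chosen by name as genes of epithelial splicing and of the epithelial-mesenchymal transition, with their normalised counts in the same 6 libraries already known. Their differences between the cell lines are therefore given as a description, with no p value. All 10 genes had a row in the table. Low values were filtered by requiring the mean across all 6 libraries to reach 10 normalised counts, which 6 of the 10 genes passed and 4 did not.

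The libraries came from ARPE-19, an established human line of retinal pigment epithelium (RPE) origin, the RPE being the pigmented layer behind the photoreceptors. The WT group was the unedited parental line, and the POLDIP2 KO group was a line in which the POLDIP2 gene had been targeted with CRISPR/Cas9, with 3 biological replicates in each. Both groups were kept in regular maintenance culture and labelled as day 3. The POLDIP2 KO line was made with a lentivirus carrying SpCas9 and an sgRNA, selected with puromycin and then expanded. It is 1 line, no step of single-cell cloning is described, and WT was not put through transduction or selection. Effects of the knockout, of the selection and of drift between the lines cannot be told apart. In bulk RNA, fewer cells that express a gene and less of its RNA in each cell cannot be told apart either.

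ESRP1 and ESRP2 are RNA-binding proteins that promote the inclusion or skipping of exons in the pattern typical of epithelia, as in FGFR2, CD44, CTNND1 and ENAH. ZEB1, ZEB2, SNAI1 and SNAI2 are zinc finger repressors that bind E-boxes and are known for silencing CDH1, which encodes E-cadherin. GRHL2 is a transcription factor of epithelia that activates CDH1 and opposes ZEB1. The RPE is an epithelium that carries N-cadherin, encoded by CDH2, and RPE cells in culture commonly carry vimentin, the product of VIM.

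The E-box that these repressors bind reads CAGGTG, or CACCTG on the other strand. It was looked for on both strands in the 250 bases before each transcription start of a RefSeq table on GRCh38.p14, where 17.5% of 35116 windows held it. Among the 10 genes, 4 had windows there: ZEB1 with 7, CDH2 with 2, and VIM and ZEB2 with 1 each. ESRP1, ESRP2, GRHL2, CDH1, SNAI1 and SNAI2 had no window in that table. The E-box was present in 2 of the 7 ZEB1 windows and in none of the windows of CDH2, VIM and ZEB2. The 3 ZEB1 stretches that hold it are shown because ZEB1 encodes one of the E-box repressors itself. A stretch before SPINT1, an epithelial gene described below, is shown for comparison. SPINT1 was 1 of several such genes. Of the tested genes with a window on the lists below, 6 of 11 epithelial and 3 of 16 mesenchymal genes had an E-box, beside 20.6% of all genes with a window. Each is 30 bases long and on the plus strand, with the E-box in capitals, and the matches are a description of the letters only.
ZEB1, chr10:31318348-31318377: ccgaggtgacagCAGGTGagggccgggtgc
ZEB1, chr10:31318966-31318995: ccccaccaCACCTGaggaaaacttttccct
ZEB1, chr10:31319119-31319148: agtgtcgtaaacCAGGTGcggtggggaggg
SPINT1, chr15:40844439-40844468: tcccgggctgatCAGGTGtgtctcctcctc
The E-boxes begin 57, 242 and 85 bases before their ZEB1 starts and 26 bases before the SPINT1 start. The stretch at 31318348 lies in an exon of the antisense gene ZEB1-AS1, the one at 31318966 in exons of both ZEB1 and ZEB1-AS1, and the one at 31319119 in an exon of ZEB1 alone, since ZEB1 has several starts. The SPINT1 stretch lies in an exon of the antisense gene SPINT1-AS1.

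The knockout target was checked first, and then the depth and the markers. POLDIP2 was at 3919 to 4827 normalised counts in WT and at 1063 to 1248 in POLDIP2 KO (log2 fold change -1.97, SE 0.13, adjusted p = 0.00961, limma), so its transcript remained detectable in all 3 POLDIP2 KO libraries. These are RNA levels. For this line the authors report indels at the target site and no POLDIP2 protein by western blot. Recovered reads were 31532797 to 45795509 per library, and 3 reads corresponded to 2.44 to 3.69 normalised counts, which is used as a floor. Of 12 RPE markers, 9 passed the filter, whereas RPE65 and TTR were at 0 in every library, and the 12 summed to 24550 to 50071 normalised counts in WT and 26107 to 66654 in POLDIP2 KO. None of the 9 was called, TIMP3 had the highest mean (log2 fold change 0.48), and the lines did not overlap for 1 of the 9, SERPINF1, beside 10.9% of all genes tested (log2 fold change -0.77, adjusted p = 0.822, limma). The epithelial keratins KRT8 and KRT18 were among the abundant transcripts in both lines. Of the other epithelial markers, CDH1 was under the filter, and EPCAM and KRT19 are not reported here. Among markers of other cell types, the 5 leukocyte markers summed to 0 to 3.01 normalised counts in WT and 4.92 to 9.93 in POLDIP2 KO. Of these 5, 3 were at 0 in every library, among them CD3E and AIF1. The 5 endothelial markers summed to 39.7 to 199 and 45.7 to 138, and the 5 markers of stratified epithelium to 39.7 to 163 and 37.4 to 122, with KRT5 at 0. The 6 fibroblast markers summed to 2132 to 6799 in WT and 2081 to 14179 in POLDIP2 KO.

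Among the 10 genes, ESRP2 was the only one whose libraries did not overlap between the lines, and it was lower in POLDIP2 KO. The lines did not overlap for 10.9% of all genes tested. ESRP2 (ENSG00000103067, chr16:68229033-68238102, minus strand, 15 exons in the canonical transcript) was at 213, 183 and 210 normalised counts in WT replicates 1, 2 and 3. In POLDIP2 KO replicates 1, 2 and 3 it was at 30.8, 34.2 and 29.8. Every POLDIP2 KO library was thus below every WT library, and within each line the libraries lay close together, with a coefficient of variation of 8.21% in WT and 7.33% in POLDIP2 KO. The means were 202 ± 16.6 and 31.6 ± 2.31 (SD, n = 3), so the level in WT was 6.39 times that in POLDIP2 KO. These values rest on 182 to 225 recovered reads in each WT library and 25 to 42 in each POLDIP2 KO library.

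The log2 fold change of ESRP2 was -2.64 (SE 0.23, 95% interval -3.17 to -2.10) on the scale of log2(normalised count + 1), which understates the change of low genes. Between libraries with the same replicate number, the level in POLDIP2 KO was 0.145, 0.187 and 0.142 of that in WT, lower in all 3 pairs, as were 15.7% of the genes tested. ESRP2 held rank 76 from the lowest log2 fold change among the 14684 genes tested. It was the only 1 of the 6 genes past the filter that fell among the genes called by limma at an adjusted p under 0.05 and a fold change over 1.5, where the background was 0.17% of the genes tested. Since the list was drawn up with this contrast known, that count is not a test of ESRP2 and nothing is read from it. With any 1 of the 6 libraries left out, the log2 fold change of ESRP2 was -2.71 to -2.60.

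ESRP1, the paralogue of ESRP2, was near the floor in both lines. ESRP1 (ENSG00000104413, chr8:94641074-94707466, plus strand) was at 9.45, 4.01 and 3.13 normalised counts in WT and at 3.69, 0 and 1.99 in POLDIP2 KO. These stand for 10, 4 and 3 reads against 3, 0 and 2 reads. The lines overlap, since the highest POLDIP2 KO library lies above the lowest WT library. Over the libraries of each line, 17 reads in WT stood against 5 in POLDIP2 KO, a ratio of POLDIP2 KO to WT of 0.284 with an exact 95% interval of 0.0820 to 0.802 that covers counting error only. ESRP1 did not pass the filter and was not fitted.

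GRHL2, which sustains epithelial gene expression, was at or under 3 reads in every library. GRHL2 (ENSG00000083307, chr8:101492439-101669726, plus strand) was at 0, 2.01 and 1.04 normalised counts in WT and at 0, 0.814 and 1.99 in POLDIP2 KO, which is 3 reads in all for each line. A difference between the lines was not detectable at this depth.

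Of the cadherins, CDH2 was abundant in both lines and CDH1 was close to the floor. CDH1 (ENSG00000039068, chr16:68737292-68835537, plus strand), which encodes the E-cadherin of epithelial adherens junctions, was at 3.78, 10.03 and 0 normalised counts in WT and at 13.5, 5.70 and 10.9 in POLDIP2 KO. WT replicate 2 lay above POLDIP2 KO replicate 2, so the lines overlap. The 14 reads of WT and the 29 reads of POLDIP2 KO give a ratio of 2.00, with an exact 95% interval of 1.02 to 4.10 for counting error only. CDH1 was under the filter and was not fitted.

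CDH2 (ENSG00000170558, chr18:27932879-28177946, minus strand) was at 15408, 7614 and 9660 normalised counts in WT and at 15611, 9278 and 10226 in POLDIP2 KO. Replicate 1 was the highest library in both lines, and the lines overlap. The means were 10894 ± 4041 and 11705 ± 3416 (SD, n = 3), with a log2 fold change of 0.13 (SE 0.30, 95% interval -0.57 to 0.83). Between same-numbered libraries the log2 difference was 0.02, 0.29 and 0.08, higher in POLDIP2 KO in all 3 pairs, as were 17% of the genes tested.

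VIM was the most abundant of the 10 genes in every library. VIM (ENSG00000026025, chr10:17228241-17237593, plus strand) was at 166862, 138762 and 133876 normalised counts in WT and at 181847, 141837 and 151598 in POLDIP2 KO. As for CDH2, replicate 1 was the highest library in both lines and the lines overlap. The means were 146500 ± 17803 and 158427 ± 20861 (SD, n = 3), and the log2 fold change was 0.11 (SE 0.18, 95% interval -0.31 to 0.53). With quantile normalisation the log2 fold change of VIM was -0.01, so its sign depends on the scaling.

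Both ZEB repressors were well expressed, at similar levels in the lines. ZEB1 (ENSG00000148516, chr10:31318495-31529814, plus strand) was at 889, 1616 and 1258 normalised counts in WT and at 840, 1227 and 1356 in POLDIP2 KO. Here replicate 1 was the lowest library in both lines, and the lines overlap. The means were 1255 ± 364 and 1141 ± 269 (SD, n = 3), with a log2 fold change of -0.12 (SE 0.26, 95% interval -0.75 to 0.50).

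ZEB2 (ENSG00000169554, chr2:144364364-144521057, minus strand) was at 2995, 3479 and 2705 normalised counts in WT and at 3004, 2915 and 3170 in POLDIP2 KO. All 3 POLDIP2 KO libraries lay within the range of WT. The means were 3060 ± 391 and 3030 ± 129 (SD, n = 3), and the log2 fold change was -0.01 (SE 0.12, 95% interval -0.29 to 0.27), the narrowest of the 6 genes fitted without the replicate block. With replicate numbers blocked, intervals were -0.30 to 0.29 for ZEB2, -0.06 to 0.28 for VIM and -0.08 to 0.34 for CDH2, so that of VIM was then the narrowest.

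Of the Snail repressors, SNAI1 was low and SNAI2 was close to undetected. SNAI1 (ENSG00000124216, chr20:49982980-49988886, plus strand) was at 31.2, 24.1 and 57.4 normalised counts in WT and at 19.7, 30.1 and 51.6 in POLDIP2 KO. Replicate 3 was the highest library in both lines, and the lines overlap. The log2 fold change of SNAI1 was -0.16 (SE 0.50, 95% interval -1.34 to 1.02), the widest interval of the 6 genes, so changes of more than 2-fold in either direction lie within it. SNAI2 (ENSG00000019549, chr8:48917598-48921740, minus strand) had 0 reads in all 3 WT libraries, 2 reads in POLDIP2 KO replicate 1 and 0 in the other POLDIP2 KO libraries, and no fold change is given.

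The 5 fitted genes other than ESRP2 had log2 fold changes of at most 0.16 in size, beside a median size of 0.13 over all genes tested. Without the block, the intervals of ZEB2 and VIM stay within 0.53 on the log2 scale, and those of ZEB1, CDH2 and SNAI1 are wider. With the block, those of ZEB2, VIM and CDH2 stay within 0.34, and those of ZEB1 (-0.45 to 0.20) and SNAI1 (-1.06 to 0.74) are wider. In same-numbered pairs, the log2 differences of ZEB1 were -0.08, -0.40 and 0.11, those of ZEB2 were 0.00, -0.25 and 0.23, and those of SNAI1 were -0.64, 0.31 and -0.15, so for each of these repressors the pairs differed in sign. The pairs of VIM, at 0.12, 0.03 and 0.18, did not. For ESRP2 the 3 pairs were -2.75, -2.38 and -2.78.

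**Figure D1:**
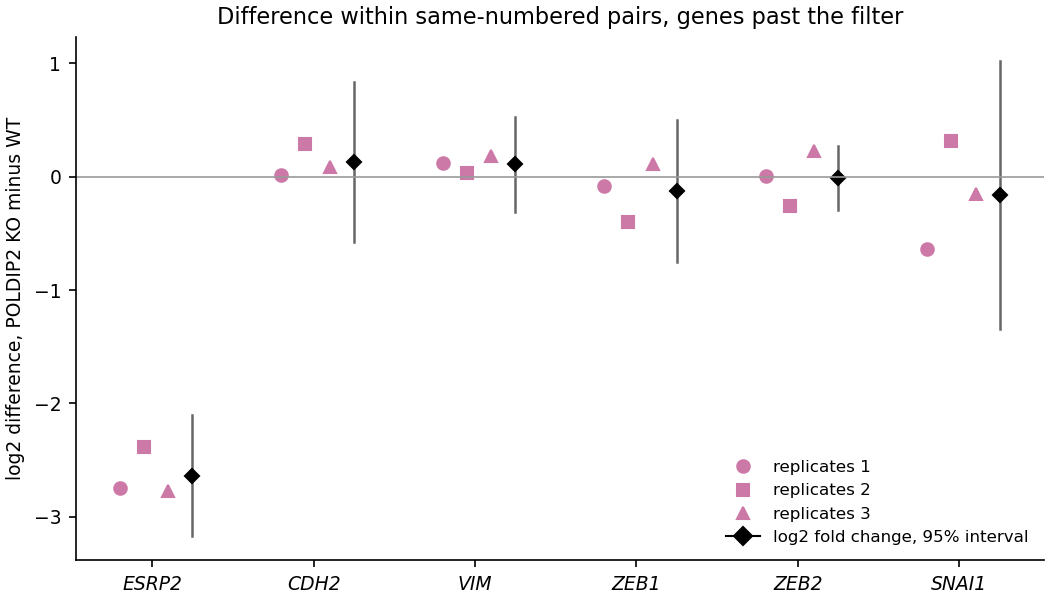
Log2 difference in normalised count + 1, POLDIP2 KO minus WT, within each pair of libraries of the same replicate number (coloured symbols), beside the log2 fold change with its 95% interval (black), for the 6 genes past the filter. The pairs of ESRP2 lie between -2.78 and -2.38, and the intervals of the other 5 genes include 0.

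To compare levels between genes, normalised counts were divided by the length of the canonical transcript. In WT the order per kb was VIM at 68013, CDH2 at 2713, ZEB2 at 330, ZEB1 at 211, ESRP2 at 58.8, SNAI1 at 22.03, ESRP1 at 1.47, CDH1 at 0.957, GRHL2 at 0.194 and SNAI2 at 0 normalised counts per kb. Among neighbours in this order, ZEB2 and ZEB1 did not overlap in any library, at 292 to 375 and 150 to 272 per kb in WT, whereas ESRP1 and CDH1 overlapped, at 0.831 to 2.51 and 0 to 2.09. ESRP2 and SNAI1 changed places between the lines. In WT, ESRP2 at 53.3 to 62.0 per kb lay above SNAI1 at 14.1 to 33.7, and in POLDIP2 KO, ESRP2 at 8.69 to 9.97 lay below SNAI1 at 11.5 to 30.3. The level per kb of ESRP2 was at percentile 22.9 of the 13799 tested genes with a length in WT and at percentile 7.04 in POLDIP2 KO.

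The balance within each gene pair can be read from ratios per kb in single libraries. ZEB2 exceeded ZEB1 by a factor of 2.16 in WT replicate 1 and 1.38 in both other WT libraries. The factor was 2.29 in POLDIP2 KO replicate 1, 1.52 in replicate 2 and 1.497 in replicate 3, so replicate 1 was highest in both lines. ESRP2 exceeded ESRP1 by a factor of 24.7, 49.998 and 73.6 in WT. In POLDIP2 KO the factor was 9.16 in replicate 1 and 16.5 in replicate 3, and replicate 2 had no ESRP1 read. CDH2 exceeded CDH1 by a factor of at least 909 in every library in which CDH1 had a read. These ratios with ESRP1 and CDH1 rest on a few reads and carry wide counting error.

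The libraries labelled replicate 1 stood apart from replicates 2 and 3 in the same way in both lines for several of the 10 genes. Relative to the mean of replicates 2 and 3 on the log2 scale, CDH2 in replicate 1 was higher by 0.85 in WT and 0.68 in POLDIP2 KO, and VIM was higher by 0.29 and 0.31. ZEB1 differed in the other direction, by -0.68 and -0.62. ESRP2 differed little, by 0.12 and -0.05. Replicate 1 was the highest library in both lines for 22% of the genes tested and the lowest in both for 20.5%. Of the 20 tested mesenchymal genes on the list used below, 14 were highest in replicate 1 in both lines, among them TAGLN, which encodes the actin-binding protein transgelin, at 35183 against 2228 and 1425 normalised counts in WT and at 51738 against 4102 and 5461 in POLDIP2 KO. Of the 20 tested epithelial genes, 6 were. What sets replicate 1 apart is not given in the sources used here and was not tested.

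**Figure D2:**
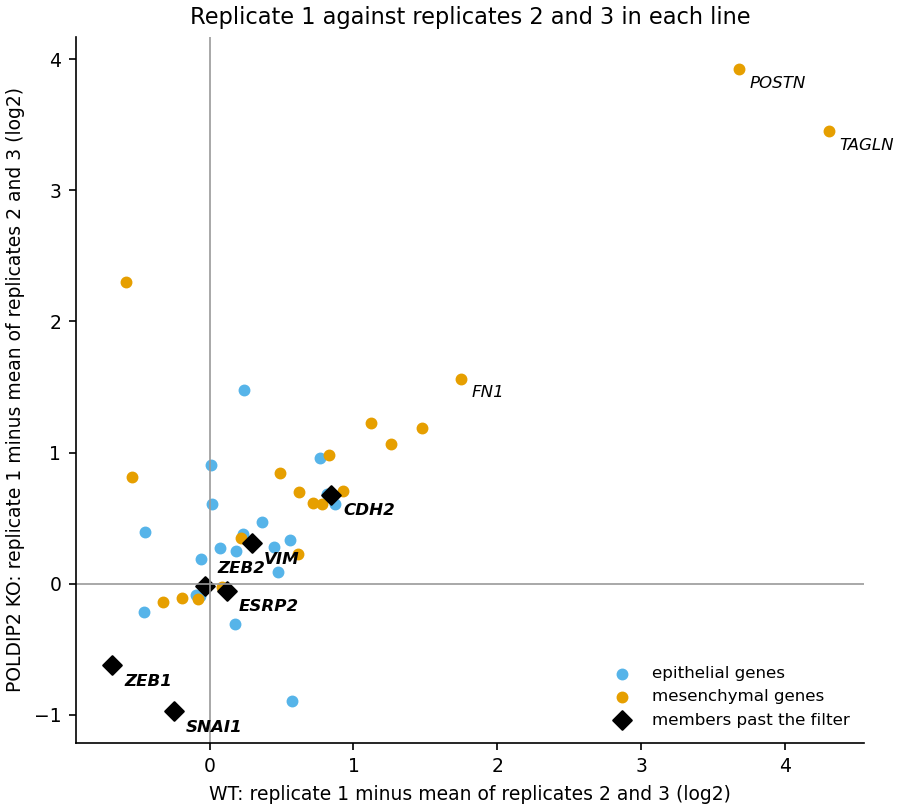
Log2 difference between replicate 1 and the mean of replicates 2 and 3 in WT (horizontal axis) and in POLDIP2 KO (vertical axis) for the 6 genes past the filter (black) and for the tested epithelial and mesenchymal genes of the lists (coloured). CDH2 lies at 0.85 and 0.68, ZEB1 at -0.68 and -0.62 and ESRP2 near 0 on both axes, and TAGLN, POSTN and FN1 lie far to the upper right.

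Other genes were taken from 7 lists with 111 tested genes in all. Of these, 6 lists hold genes of epithelial and mesenchymal programmes, and the list that remains holds the 22 tested genes around ESRP2, chosen by position only. They were fitted with limma across all 14684 genes. None of the 111 was called, where 0.0817% of all genes tested were called higher and 0.0885% lower in POLDIP2 KO. At an unadjusted p under 0.05 there were 10 of the 111, beside 6.48% of all genes tested. The edgeR quasi-likelihood test, which called 0.116% of all genes, called 0 of them, and DESeq2, which called 1.69% of all genes, called 5 (CLDN4, KRT7, PKP3, ITGA5 and SLC7A6, the last being a neighbour of ESRP2). With the replicate number as a block, limma called 1, ITGA5, beside 0.204% of all genes. With the same block, edgeR called none of the 111 beside 0.0341% of all genes, and DESeq2 called 4 beside 2.67%.

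Of 20 other transcription factors of the epithelial-mesenchymal transition, 12 were tested, 6 higher and 6 lower in POLDIP2 KO, with a median log2 fold change of -0.04 beside 0.00 over all genes tested. TCF3, which encodes the E-box binding factors E12 and E47, had the highest mean in the list, with a log2 fold change of 0.03 (SE 0.10).

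Among 17 tested splicing factors other than the ESRPs, 8 were higher and 9 lower, with a median log2 fold change of -0.01. HNRNPA1, a widely expressed splicing repressor, had the highest mean and a log2 fold change of -0.01. QKI, an RNA-binding protein that rises in mesenchymal cells in other systems, was at 8846, 9021 and 8954 normalised counts in WT and at 9764, 9240 and 11705 in POLDIP2 KO. Its lines did not overlap and its log2 fold change was 0.19 (adjusted p = 0.981, limma). The 14 genes that host ESRP-dependent exons were all tested, and 8 were higher and 6 lower with a median log2 fold change of 0.03. These are levels of whole genes, and the use of the exons within them was not analysed here.

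The epithelial list showed the widest range of log2 fold changes, from -1.84 to 1.87. Of its 20 tested genes, 16 were lower and 4 higher in POLDIP2 KO, with a median log2 fold change of -0.24, where 50.1% of all genes tested were lower. The lines did not overlap for 9 of them, 7 lower and 2 higher, beside 5.44% and 5.46% of all genes tested. At an unadjusted p under 0.05, 6 were lower and 1 higher, beside 3.47% and 3% of all genes tested, and none was called by limma.

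KRT7, a keratin of simple epithelia, was at 5860, 5166 and 3076 normalised counts in WT and at 2074, 1765 and 1542 in POLDIP2 KO. Its log2 fold change was -1.35 (SE 0.25, adjusted p = 0.160, limma), with an adjusted p of 1.9e-05 by DESeq2. CLDN4, a claudin of tight junctions, was at 103, 92.3 and 126 in WT and at 39.4, 48.0 and 36.7 in POLDIP2 KO. Its log2 fold change was -1.35 (SE 0.27, adjusted p = 0.186, limma), with an adjusted p of 0.0106 by DESeq2. By DESeq2 with the replicate block the adjusted p of CLDN4 was 0.0832, and it was not called. In both genes every POLDIP2 KO library lay below every WT library.

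SPINT1, an inhibitor of membrane serine proteases whose E-box stretch is shown above, was at 134, 118 and 67.9 normalised counts in WT and at 29.5, 57.8 and 53.6 in POLDIP2 KO (log2 fold change -1.17, SE 0.39, adjusted p = 0.577, limma). PKP3, a plakophilin of desmosomes, lay in the other direction. It was at 38.7, 26.1 and 17.8 in WT and at 135, 144 and 48.7 in POLDIP2 KO, with a log2 fold change of 1.87 (SE 0.51, adjusted p = 0.393, limma) and an adjusted p of 0.0338 by DESeq2. KRT8, the list gene with the highest mean, had a log2 fold change of 0.05.

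All 20 mesenchymal genes were tested, and 14 were higher and 6 lower, with a median log2 fold change of 0.15. The lines did not overlap for 2 of the 20, both higher. Of all genes tested, 5.46% were higher without overlap, and 10.9% did not overlap in either direction. At an unadjusted p under 0.05 (limma), 1 was higher and 0 lower, beside 3% and 3.47% of all genes tested. With 20 genes both counts say little. Neither takes the replicate numbers into account, although 14 of the 20 were highest in replicate 1 in both lines. ITGA5, the alpha subunit of a fibronectin receptor, was at 11667, 9599 and 10444 normalised counts in WT and at 22395, 17495 and 17722 in POLDIP2 KO. The lines did not overlap, and the log2 fold change was 0.86 (SE 0.14, adjusted p = 0.102, limma). With the replicate block the adjusted p was 0.0436, past the threshold, and DESeq2 gave 9e-06. S100A4, a calcium-binding protein used as a fibroblast marker, was at 166, 209 and 208 in WT and at 234, 230 and 289 in POLDIP2 KO (log2 fold change 0.37, adjusted p = 0.915, limma). Of the 4 tested fibroblast markers, whose sums are given above, none had lines that did not overlap, beside 10.9% of all genes tested. With 4 genes that count says little. The 4 markers did not move alike. Between same-numbered libraries, COL1A1, a collagen chain, had log2 differences of 1.70, 1.24 and 1.53, PDGFRB of 0.51, -0.46 and 0.37, and PDGFRA of -0.27, -0.29 and -0.07. COL1A2 was at 614 normalised counts in POLDIP2 KO replicate 1 and at 0 to 9.45 in the other libraries. COL1A1 was called with the replicate block by limma and DESeq2, beside 0.204% and 2.67% of all genes tested, and not without it. The part of fibroblast-like cells in these results was not tested.

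The 24 other classical cadherins and catenins included 11 tested genes, 4 higher and 7 lower, with a median log2 fold change of -0.13 and 0 genes whose lines did not overlap, beside 10.9% of all genes tested. CTNNA1, which links cadherins to actin, had the highest mean of the list and a log2 fold change of -0.03. The host genes of miR-200 and miR-205, microRNAs that repress ZEB1 and ZEB2, were not analysed here.

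**Figure D3:**
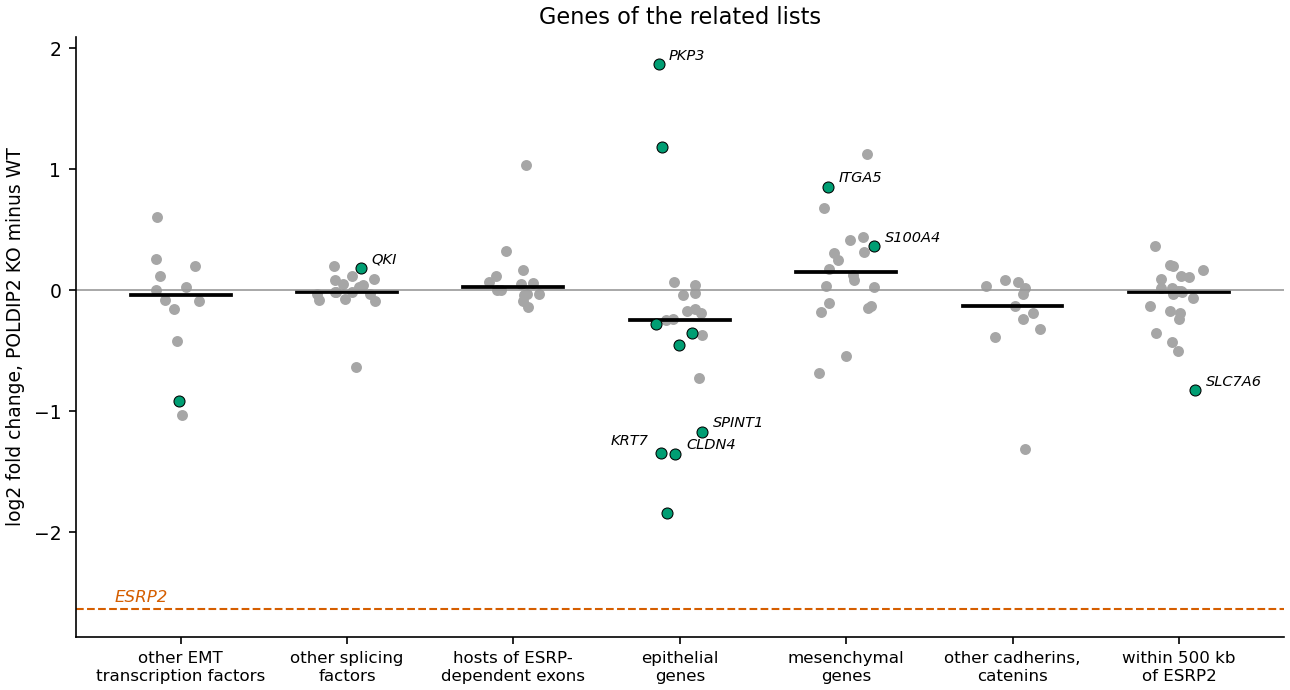
Log2 fold change, POLDIP2 KO minus WT, of each tested gene of the 7 lists (points), with the list median (black bar) and the value of ESRP2 (dashed line). Green points are genes whose libraries did not overlap between the lines, and those described in the text are named. The epithelial median lies at -0.24 and the mesenchymal median at 0.15, and no point reaches the -2.64 of ESRP2.

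ESRP2 and CDH1 lie on the same chromosome, with starts 499 kb apart, so the genes around ESRP2 were described as well. Of 33 annotated genes that start within 500 kb of the ESRP2 start, 22 were tested, 9 higher and 13 lower, with a median log2 fold change of -0.01. Both protein-coding genes beside ESRP2 were at similar levels in the lines. NFATC3, a transcription factor of calcium signalling whose end overlaps the end of ESRP2 by 227 bases on the other strand, had a log2 fold change of -0.02 (SE 0.13). PLA2G15, a lysosomal phospholipase that starts 7.20 kb from ESRP2, had a log2 fold change of 0.20 (SE 0.36).

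SLC7A6, an amino acid transporter that starts 26.4 kb from ESRP2, was the 1 gene of the 22 whose lines did not overlap, beside 10.9% of all genes tested. It was at 3819, 2545 and 2956 normalised counts in WT and at 1805, 1646 and 1753 in POLDIP2 KO. Its log2 fold change was -0.82 (SE 0.16, adjusted p = 0.183, limma), and DESeq2 gave an adjusted p of 0.000777. Of the genes beyond it, SLC7A6OS had a log2 fold change of -0.01, PRMT7 0.12 and SMPD3 -0.51 (SE 0.39). NUTF2, the gene of the region with the highest mean, had a log2 fold change of 0.02, and CDH3, the P-cadherin gene next to CDH1, -0.18.

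**Figure D4:**
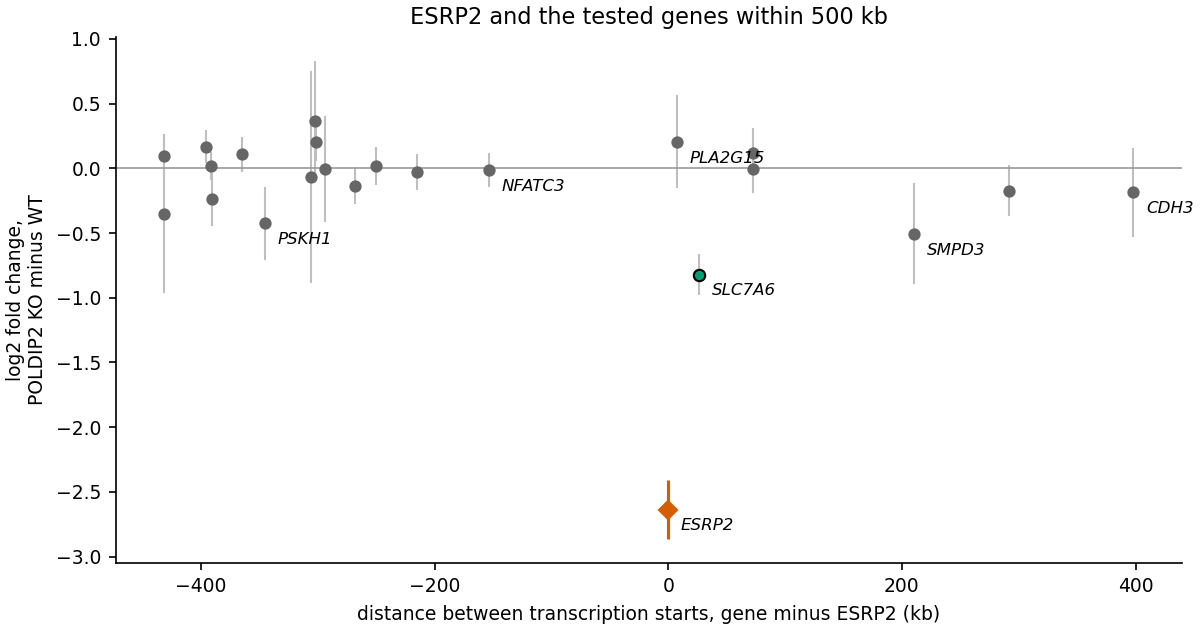
Log2 fold change with its standard error, POLDIP2 KO minus WT, for ESRP2 (orange) and the 22 tested genes around it, against the distance between transcription starts in kb. ESRP2 lies at -2.64 and SLC7A6, 26.4 kb away, at -0.82, whereas NFATC3 and PLA2G15 on either side lie at -0.02 and 0.20.

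The 5 tested genes whose values followed ESRP2 most closely were picked by Pearson's r with it over the 6 libraries on the log2 scale. With a difference of this size between the lines, r mostly reflects that difference, and no p is given. AGO1, which encodes an Argonaute protein of microRNA silencing, had an r of 0.995. It was at 865, 735 and 894 normalised counts in WT and at 327, 374 and 340 in POLDIP2 KO, and like ESRP2 it had its lowest WT library and its highest POLDIP2 KO library in replicate 2. PLAAT1, a phospholipase and acyltransferase, had an r of 0.990, with means of 123 ± 5.23 in WT and 67.1 ± 3.46 in POLDIP2 KO (SD, n = 3). ENSG00000275947, which is absent from the annotation used and so has no symbol or position here, had an r of 0.995. Its means were 335 ± 2.58 in WT and 273 ± 1.59 in POLDIP2 KO (SD, n = 3). KDM5D had the highest r of the 5, 0.996, and TXLNGY had an r of 0.991. Both lie on chromosome Y and had no read in any POLDIP2 KO library. Their means in WT were 51.5 ± 19.3 and 25.8 ± 6.32 (SD, n = 3).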

How the data were processed

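The authors sequenced stranded single-end libraries of poly(A) RNA, quantified transcripts with Salmon 1.8, combined them into GRCh38 gene counts through tximport, and applied the size factors of DESeq2 1.34.0. The deposited signal is thus a normalised count for each gene and library, and the annotation release is not given in the sources used here. All columns were used (0 left out). Symbols, positions and canonical lengths came from GENCODE 44, and the strand setting of the counting is not given, so reads of overlapping antisense genes may not be separated (ESRP2 shares 227 exonic bases with NFATC3, ZEB1 396 with ZEB1-AS1, VIM 656 with VIM-AS1 and ZEB2 1299 with ZEB2-AS1).

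Reads were recovered by taking the lowest non-zero value of a library as 1 read, and 100% of values were whole within 0.001. In WT replicate 2 and POLDIP2 KO replicate 3 that step is within 1% of 1, so wholeness says little there. Intervals on reads and the floor of 3 reads cover counting error only.

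The 6 libraries were fitted with limma 3.58.1 (eBayes with trend, R 4.3.3) on log2(normalised count + 1). Genes entered the fit if their mean reached 10 (14684 genes), with Benjamini-Hochberg adjustment over all of them. Calls needed an adjusted p under 0.05 and a fold change over 1.5. The labels name biological replicates, and p values measure the spread between these libraries. The members and lists were chosen with earlier results of these data known. From each list the text names called genes, otherwise up to 4 non-overlapping genes with the smallest p and the gene with the highest mean. TAGLN, FN1, POSTN and the fibroblast markers, the markers at 0, and neighbours of ESRP2 singled out were chosen after their values were seen. CLDN7 and TWIST2 are not analysed here. Some genes that this rule picks stay in the counts and are not reported here on their own.

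Deviations of same-numbered libraries from their line means correlated at 0.315, 0.138 and 0.130 across genes (other combinations -0.259 to 0.147). All 3 lay above the limit of 0.1, so the numbers were taken to pair the samples. WT replicate 3 with POLDIP2 KO replicate 2 was also above the limit, at 0.147, and above same-numbered pairs 2 and 3. The correlations thus set apart replicate 1 only and do not settle how replicates 2 and 3 pair. Pair differences and fits with the block rest on the numbers in the labels. Alternatives were pseudocounts of 0.5 and 5, dropping the filter or raising it to 50, quantile and TMM scaling, no trend, the replicate block, edgeR 4.0.16 and DESeq2 1.42.0 on recovered reads, and each library left out. Limma with and without the block, and edgeR and DESeq2 without it, were run on simulated counts that held no replicate effect. The simulation thus says nothing about that effect, and it did not cover edgeR or DESeq2 with the block. Scripts ran in Python 3.11.15.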

Additional observations from a re-analysis of the deposited data

How the results depend on the processing

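With all libraries, 25 genes were called, 12 higher and 13 lower in POLDIP2 KO. The number was 16 with a mean of at least 50, 248 by DESeq2 and 0 to 5 with 1 library left out, and the replicate block gave 30. The block combined with edgeR, which gave 5, and with DESeq2, which gave 392, was chosen after seeing the data. Of the list genes, 1 was called with the replicate block, 5 by DESeq2 and 4 by DESeq2 with the block, and 0 in each fit with 1 library left out.

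ESRP2, the 1 member among the genes called, was counted there in each of the other fits to all 6 libraries except edgeR with the replicate block (0 members). In the fits with 1 library left out, which call at most 5 genes in all, 0 members were called. ESRP2 was chosen with this contrast known, and all these fits reuse the same libraries. The counts are therefore no test of ESRP2, and nothing is read from them in either direction. The log2 fold change of ESRP2 was -2.50 with a pseudocount of 5 and -2.71 to -2.60 with a library left out. POLDIP2 was at -2.07 to -1.91 with 1 library left out, and lost its call without WT replicate 2 or 3 or POLDIP2 KO replicate 2 or 3. The cause was not tested, and each of these fits has 1 sample fewer. Log2 fold changes of members not called crossed 0 when a library was left out: CDH2 -0.10 to 0.41, ZEB1 -0.35 to 0.08, ZEB2 -0.09 to 0.09 and SNAI1 -0.51 to 0.19. VIM stayed at 0.01 to 0.21. In limma, the replicate block changed no call of a named gene other than ITGA5 and COL1A1.

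With 3 libraries a line and 3 to 29 reads in all for ESRP1, CDH1 and GRHL2 in a line, differences in these genes are limited by depth, and splicing itself was not measured in these gene totals.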
